A study of Homo sapiens with 4 samples.

Results

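Antisense noncoding RNAs are transcripts without a known protein that start on the strand opposite to another gene, and their symbols carry the name of that sense gene followed by -AS and a digit. The set described here was chosen by its level: an antisense RNA was a member when it reached a CPM of 1, where CPM is a gene's count divided by the library total and multiplied by 1e6, in at least 2 of 4 libraries. Of the 25702 genes counted, 554 had such a symbol and 182 of these met the level. The libraries came from K562, an established line from human chronic myeloid leukemia, which received by transfection either LeGO-iG2-RUNX1::ERG, a plasmid for the fusion, or LeGO-iG2 without an insert (the empty vector). RUNX1::ERG joins the hematopoietic transcription factor RUNX1 to the ETS factor ERG, and the plasmid also makes green fluorescent protein in both groups. Each group had 2 biological replicates of poly(A)-enriched RNA, and the labels give no other treatment. The paper reports that its protocol transfected most K562 cells, without a value for each of these libraries. The cells were transfected as a pool and no sorting of the K562 cells before sequencing is described. Each library may therefore hold transfected and untransfected cells. In such bulk RNA, a change in the share of cells that make an RNA and a change in the RNA per cell cannot be told apart.

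An antisense RNA can meet its sense gene in several arrangements. Some start beside the sense promoter and run away from it, some overlap exons of the sense gene head to head or tail to tail, and some lie inside an intron. Antisense RNAs have been described as acting on the chromatin or on the RNA of the gene they face, as sponges of microRNAs, or as byproducts of open promoters. How far the counts separate the strands matters for all of them, and the strand setting of the counting is not given in the sources used here. Where the exons of a pair overlap, reads from the shared stretch cannot be assigned to one gene from these counts alone.

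The sequences of the 4 antisense RNAs that passed the test between the groups are shown first. A window from 250 bases before to 50 bases after the annotated start was taken from RefSeq on GRCh38.p14, and it is printed on the strand of the antisense RNA, 5′ to 3′. Capitals mark matches to AGGAAG or CGGAAG, which hold the core read by ETS factors such as ERG, or to TGTGGT or TGCGGT, the letters read by Runt factors such as RUNX1, on either strand. The windows are chr12:65642323-65642622 (minus strand) for MSRB3-AS1, chr17:58325200-58325499 and chr17:58336952-58337251 (plus strand) for the 2 annotated starts of TSPOAP1-AS1, chr2:159615044-159615343 (plus strand) for BAZ2B-AS1 and chr17:40818895-40819194 (plus strand) for the first annotated start of KRT10-AS1.
MSRB3-AS1: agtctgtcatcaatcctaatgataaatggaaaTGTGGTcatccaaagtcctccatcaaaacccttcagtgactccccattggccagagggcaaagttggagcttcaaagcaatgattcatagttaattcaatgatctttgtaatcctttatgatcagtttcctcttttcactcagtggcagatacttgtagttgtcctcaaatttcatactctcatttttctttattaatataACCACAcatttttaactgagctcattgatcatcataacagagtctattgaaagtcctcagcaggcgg
TSPOAP1-AS1, first start: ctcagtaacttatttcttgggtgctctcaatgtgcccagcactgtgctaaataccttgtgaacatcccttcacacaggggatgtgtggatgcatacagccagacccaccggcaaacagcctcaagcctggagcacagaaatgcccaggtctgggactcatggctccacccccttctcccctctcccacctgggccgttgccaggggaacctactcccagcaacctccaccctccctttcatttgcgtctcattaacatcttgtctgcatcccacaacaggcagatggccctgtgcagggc
TSPOAP1-AS1, second start: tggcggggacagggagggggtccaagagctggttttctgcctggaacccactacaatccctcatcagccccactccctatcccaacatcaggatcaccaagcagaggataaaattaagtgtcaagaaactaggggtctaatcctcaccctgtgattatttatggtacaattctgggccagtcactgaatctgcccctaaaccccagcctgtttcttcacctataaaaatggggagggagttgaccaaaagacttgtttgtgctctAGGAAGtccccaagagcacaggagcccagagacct
BAZ2B-AS1: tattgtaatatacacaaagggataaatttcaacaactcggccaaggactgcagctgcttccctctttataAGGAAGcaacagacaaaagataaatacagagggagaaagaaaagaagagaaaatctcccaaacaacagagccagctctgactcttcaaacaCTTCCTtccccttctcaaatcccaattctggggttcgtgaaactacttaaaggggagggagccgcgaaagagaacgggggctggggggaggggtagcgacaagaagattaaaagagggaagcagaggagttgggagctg
KRT10-AS1: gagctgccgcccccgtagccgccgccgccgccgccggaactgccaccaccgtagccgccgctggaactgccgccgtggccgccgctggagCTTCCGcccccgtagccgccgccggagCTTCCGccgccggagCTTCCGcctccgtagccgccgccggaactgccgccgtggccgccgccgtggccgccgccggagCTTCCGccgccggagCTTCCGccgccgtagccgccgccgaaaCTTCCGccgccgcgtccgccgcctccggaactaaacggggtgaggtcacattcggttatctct

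The MSRB3-AS1 window held 2 matches, to TGTGGT once on each strand. BAZ2B-AS1 also held 2, to AGGAAG once on each strand. The second start of TSPOAP1-AS1 had 1 match to AGGAAG, and the first start had 0 matches. KRT10-AS1 had 6 matches to CGGAAG, all on the opposite strand, in a repetitive GC-rich stretch that lies within the body of KRT10 in RefSeq. The windows of BAZ2B-AS1 and of the first start of TSPOAP1-AS1 also lie wholly within the bodies of their sense genes in RefSeq. Of 35116 promoter windows of this length in the table, 46.9% held at least 1 of the 2 ETS hexamers and 19.6% at least 1 of the 2 Runt hexamers. The 175 windows of 147 members with an entry had shares of 54.3% and 18.9%. A match is a description of these letters and says nothing about binding.

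Stretches of exon shared with the sense gene were also read for the 4 pairs, since they are where the counts of sense and antisense can mix. Only stretches that code for protein in the sense gene are printed, on the strand of the antisense RNA and from GRCh37. The KRT10-AS1 stretch spans chr17:38975353-38975413, its 61 bases are the first of the annotated antisense RNA, and it makes up 1.99% of its exons. The TSPOAP1-AS1 stretch spans chr17:56402895-56403074 and is 180 bases long. Capitals mark the same hexamers as above.
KRT10-AS1 and KRT10: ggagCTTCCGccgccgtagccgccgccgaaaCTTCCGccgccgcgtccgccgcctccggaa
TSPOAP1-AS1 and TSPOAP1: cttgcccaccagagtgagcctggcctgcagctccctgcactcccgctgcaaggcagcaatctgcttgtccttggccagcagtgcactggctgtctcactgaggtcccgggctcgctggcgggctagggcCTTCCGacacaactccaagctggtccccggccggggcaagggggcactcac

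Library totals ran from 59695387 to 82352144 counts, and a count of 0 allows up to 3 counts, or 0.0364 to 0.0503 CPM, which covers counting error only. Between 66.7% and 68.9% of the counts from 1 to 10 were even. Such an excess can arise when each mate of a pair adds a count, and independent fragments would then be fewer than the totals. The cause of the excess was not tested. ERG checked the labels: both empty vector libraries held 4 counts of it, whereas the RUNX1::ERG libraries held 80443 and 27218. All 12 erythroid markers of K562 were tested, 1 was called, and their summed level was 12546 to 15101 CPM. The 9 megakaryocytic markers summed to 75.0 and 82.0 CPM with the empty vector and to 506 and 435 CPM with RUNX1::ERG, and 6 of the 7 tested were higher. Of 10 markers of other cell types, 4 of 9 tested were higher, the list summed to 621 to 830 CPM, and MS4A1 was at 0 in every library.

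The 182 antisense RNAs were a small and uneven part of the transcriptome. They took between 0.147% and 0.185% of all counts per library, and their mean CPM over the 4 libraries ran from 0.829 to 162 with a median of 4.03. The mean was under 2 CPM for 49 members, 2 to 5 for 60, 5 to 10 for 31, 10 to 20 for 26, 20 to 50 for 12 and 50 or more for 4. The 8 highest members held between 30.5% and 38.8% of the summed member CPM. In 151 members all 4 libraries reached 1 CPM. MSRB3-AS1 and ATP8B1-AS1 passed the level through the RUNX1::ERG libraries alone, and 0 members passed through the empty vector libraries alone.

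**Figure D1:**
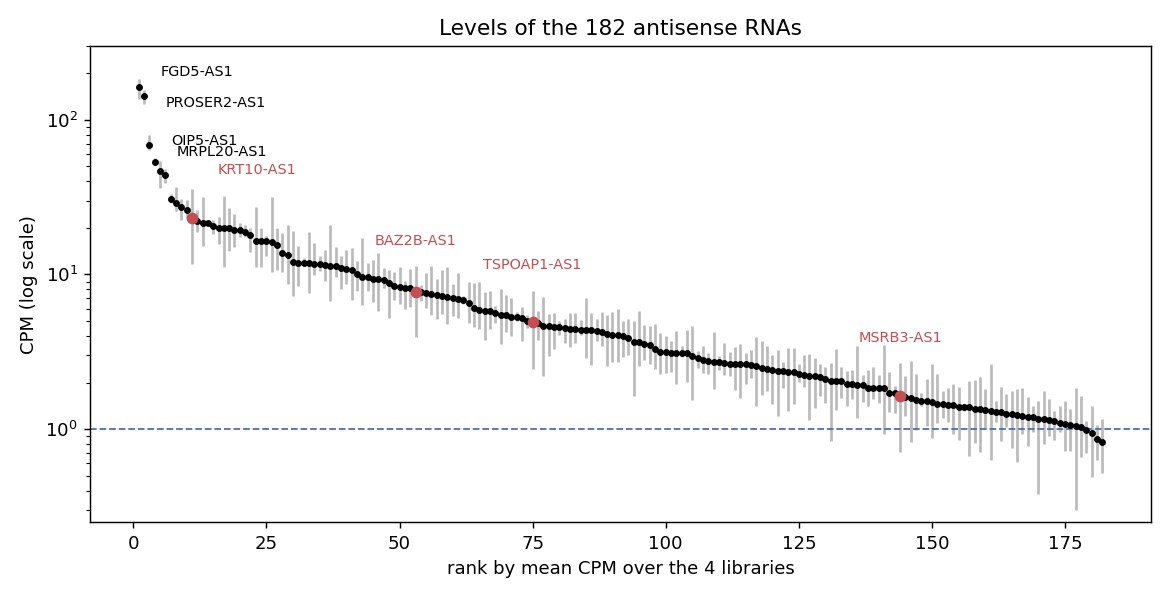
Mean CPM of each of the 182 antisense RNAs over 4 libraries (points, log scale) against its rank, with a grey line from the lowest to the highest library and a dashed line at the membership level of 1 CPM. Levels ran from 162 for FGD5-AS1 down to 0.829, and the 4 antisense RNAs past the threshold between groups (red) lay below the 8 highest.

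FGD5-AS1 led the set (chr3:14961854-14989931 on GRCh37, minus strand), an RNA facing a gene for an activator of the small GTPase Cdc42. It had 8079 and 10891 counts with the empty vector and 14889 and 13173 with RUNX1::ERG, which is 134, 154, 177 and 183 normalized CPM (CPM after scaling between libraries by edgeR's TMM method). Both RUNX1::ERG libraries were above both empty vector libraries, and the log2 fold change of 0.32 (standard error, SE, 0.15) did not pass the test (adjusted p = 0.318, quasi-likelihood test in edgeR, Benjamini-Hochberg adjusted).

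PROSER2-AS1 followed (chr10:11891607-11936699, minus strand), with 9014, 11440, 11449 and 8996 counts (the empty vector libraries first, then RUNX1::ERG, as in all lists of 4 below). Its normalized CPM was 156 ± 8.88 (SD, n = 2) against 130 ± 7.54 (SD, n = 2), the RUNX1::ERG libraries were the lower ones, and the log2 fold change was -0.26 (adjusted p = 0.431, edgeR). OIP5-AS1, the human form of the conserved RNA known as Cyrano, which binds the microRNA miR-7, had 3784, 4864, 5308 and 5728 counts. Its groups overlapped, at 65.9 ± 4.35 and 71.3 ± 11.8 normalized CPM (SD, n = 2 each), with a log2 fold change of 0.11. MRPL20-AS1, opposite a gene of the mitochondrial ribosome, stood at 53.8 ± 4.09 and 53.5 ± 2.32 normalized CPM (SD, n = 2 each). ARRDC1-AS1, OTUD6B-AS1, PRKCQ-AS1 and THAP9-AS1 completed the 8 highest, with log2 fold changes of -0.23, 0.24, -0.15 and -0.27, of which 0 passed the test.

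Close to the membership level, the second highest of the 4 CPM values was 1.01 for LEF1-AS1 and 1.02 for EML2-AS1, which were in. It was 0.997 for DDX11-AS1, 0.996 for SBF2-AS1 and 0.984 for ENTPD1-AS1, which were out.

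Positions on GRCh37 were found in GENCODE v44 for 178 members, with 98 on the plus and 80 on the minus strand, and for both genes of 175 pairs. In 145 pairs the exons of the 2 genes overlapped on opposite strands, and in 15 only the gene bodies did. In 13 pairs the genes lay apart with starts within 1000 bases, and FOXD2-AS1 was the 1 pair that lay apart with starts farther off. FAM131B-AS2 was annotated on the strand of its sense gene. The starts were on opposite strands and within 1000 bases of each other in 57 pairs in all. The shared exon bases were few: their median was 5.40% of the exon bases of the antisense RNA, and they exceeded 50% in 7 members, among them EML2-AS1 and TTN-AS1. Per kilobase of exon, the antisense RNA was above its sense gene in 52 of 175 pairs with the empty vector and in 49 with RUNX1::ERG. The median log2 ratio of antisense to sense CPM per kilobase was -1.93 with the empty vector. These lengths are of all GENCODE exons of a gene. The annotation used in the counting is not given, so values per kilobase are approximate.

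RUNX1::ERG was compared with the empty vector for each antisense RNA in a fit over all 15394 genes kept by the filter on low counts, in which all 182 members were tested. MSRB3-AS1, TSPOAP1-AS1 and BAZ2B-AS1 rose, and KRT10-AS1 fell. These 4 of 182 are 2.2% (an adjusted p under 0.05 in edgeR's quasi-likelihood test), and the share over all genes tested was 4.79%, with 3.64% higher and 1.15% lower. Under the same CPM rule, 5.32% of 11322 protein-coding genes, 5.68% of 88 long intergenic RNAs (LINC symbols) and 3.64% of 55 divergent transcripts (-DT symbols) were called. The difference between these shares was not tested. At an unadjusted p under 0.05 there were 23 members, 5 higher and 18 lower. No share of all genes at this unadjusted cutoff is given, so whether the members differ from them there cannot be read. Both RUNX1::ERG libraries were above both empty vector libraries in 25 members (13.7%, against 25.1% of all genes tested) and below them in 34 (18.7%, against 22.1%). The median log2 fold change of the members was -0.04 and that of all genes tested was -0.0017, with values of single members from -1.21 to 1.75. In 136 members the log2 fold change was under 0.5 in size. Standard errors were wide, with a median of 0.323 for members and 0.188 for the protein-coding genes of the same CPM rule, whose mean CPM had a median of 36.4.

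MSRB3-AS1 rose most (chr12:65860600-66036152, minus strand). It faces MSRB3, a methionine sulfoxide reductase that repairs oxidized protein. It had 45 and 52 counts with the empty vector and 219 and 172 with RUNX1::ERG, or 0.747, 0.737, 2.60 and 2.39 normalized CPM. The RUNX1::ERG libraries were the 2 high ones, with no overlap. The log2 fold change was 1.75 (SE 0.36, adjusted p = 0.0216, edgeR). MSRB3-AS1 became a member through the RUNX1::ERG libraries, so its membership and its rise are not independent. MSRB3 itself had 2, 3, 0 and 2 counts, at or under the limit that a count of 0 allows, and was not tested.

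TSPOAP1-AS1 (chr17:56401833-56493127, plus strand) faces TSPOAP1, which encodes a binding partner of the mitochondrial translocator protein. It had 175, 180, 645 and 464 counts, or 2.91 and 2.55 normalized CPM with the empty vector and 7.65 and 6.45 with RUNX1::ERG. The groups did not overlap, and the log2 fold change was 1.37 (SE 0.27, adjusted p = 0.0175, edgeR). TSPOAP1 had 299, 314, 709 and 402 counts, with its highest value in RUNX1::ERG replicate 1 and a log2 fold change of 0.57 (SE 0.28) that did not pass (adjusted p = 0.322). The shared exons come to 252 bases, of which 180 code for protein and 72 are untranslated in TSPOAP1. The body of this antisense RNA also spans MIR142HG, the host of the blood cell microRNA miR-142, and the genes SUPT4H1 and RNF43, all on the minus strand. The gene MIR142 had 105, 96, 267 and 59 counts, so the RUNX1::ERG replicates lay on either side of the empty vector, and the log2 fold change of 0.37 did not pass (adjusted p = 0.799). SUPT4H1, a transcription elongation factor subunit, had a log2 fold change of -0.01. RNF43, a ubiquitin ligase of the Wnt pathway that lies over most of the body, had 399, 432, 363 and 361 counts, lower in both RUNX1::ERG libraries after scaling, and a log2 fold change of -0.45 that did not pass (adjusted p = 0.408, edgeR).

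BAZ2B-AS1 (chr2:160471803-160475148, plus strand) starts 1277 bases from the start of BAZ2B in GENCODE. BAZ2B encodes a bromodomain protein of chromatin. In RefSeq on GRCh38.p14 BAZ2B, on the minus strand, spans 159315312 to 159712442. The printed window of BAZ2B-AS1 lies wholly inside it, far from the RefSeq start at 159712442, so the 2 annotations place the start of BAZ2B differently. Its counts were 313 and 288 with the empty vector and 928 and 743 with RUNX1::ERG, which is 4.64 ± 0.787 and 10.7 ± 0.475 normalized CPM (SD, n = 2 each). Both RUNX1::ERG libraries were high, and the log2 fold change was 1.20 (SE 0.25, adjusted p = 0.0201, edgeR). BAZ2B had 1367, 1192, 2027 and 1892 counts. Its RUNX1::ERG libraries were also the higher ones, with a log2 fold change of 0.35 (SE 0.20) that did not pass (adjusted p = 0.428). The exons of the pair share 388 bases, 12.3% of those of the antisense RNA, all untranslated in BAZ2B.

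KRT10-AS1 (chr17:38975353-38992522, plus strand) was the member that fell. RefSeq gives TMEM99 as its older name. Its annotated start lies inside KRT10, which encodes a keratin of the upper epidermis. It had 2137 and 2069 counts with the empty vector and 964 and 1186 with RUNX1::ERG, or 32.4 ± 4.34 and 13.97 ± 3.58 normalized CPM (SD, n = 2 each). The RUNX1::ERG libraries were both low, and the log2 fold change was -1.21 (SE 0.22, adjusted p = 0.0122, edgeR). KRT10 fell with it, from 23249 and 26146 to 15085 and 11453 counts, with a log2 fold change of -1.16 (SE 0.15, adjusted p = 0.0016, edgeR). KRT10 was the only sense gene called together with its antisense RNA, among the 176 pairs whose genes were both tested.

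**Figure D2:**
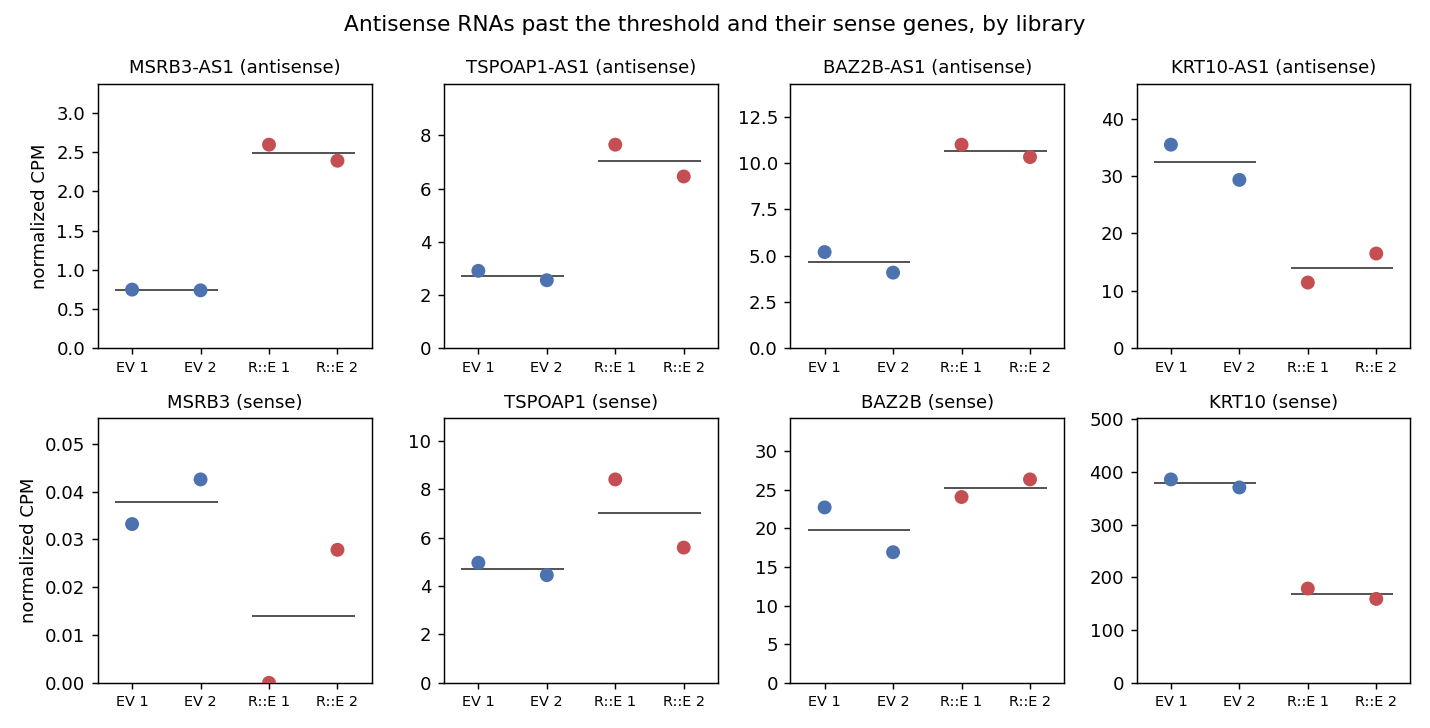
Normalized CPM in each library of the 4 antisense RNAs past the threshold (top) and of their sense genes (bottom), with empty vector (EV) in blue, RUNX1::ERG (R::E) in red and lines at group means of 2 libraries. The antisense groups do not overlap in any of the 4, KRT10 falls with KRT10-AS1, and MSRB3 is at or under 0.0425 in every library.

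All 4 calls were lost without RUNX1::ERG replicate 1, where 0 members were called by edgeR and the number over all genes fell to 286. The log2 fold changes there were 1.69 for MSRB3-AS1, 1.24 for TSPOAP1-AS1, 1.16 for BAZ2B-AS1 and -0.97 for KRT10-AS1, with adjusted p of 0.15, 0.15, 0.12 and 0.087. Normalized CPM of ERG was 954 in that library and 379 in RUNX1::ERG replicate 2. The part of this difference in the result was not tested. Leaving out empty vector replicate 1 gave 11 called members and 1227 genes in all, and leaving out empty vector replicate 2 gave 22 and 1336, with these 4 among them each time. With all 4 libraries 737 genes were called.

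The antisense RNAs named here as next to the threshold were picked after their values were seen. The balance of falls and rises among them is therefore no result about the set. No share of falls and rises at this level over all genes is given. TMEM147-AS1 had 1365 and 1803 counts with the empty vector and 1277 and 1069 with RUNX1::ERG, or 24.1 ± 2.05 and 15.01 ± 0.195 normalized CPM (SD, n = 2 each), with a log2 fold change of -0.68 (adjusted p = 0.07, edgeR). FOXD2-AS1 had 18.8, 12.4, 9.80 and 7.19 normalized CPM, with no overlap and a log2 fold change of -0.88 (adjusted p = 0.0922). The other named falls at this level were in PPP1R26-AS1, ZNF674-AS1 and C10orf95-AS1, at -0.98, -0.84 and -0.84, and none of these 5 passed in edgeR. DESeq2's Wald test called all 5, and so did edgeR without the filter on low counts. Leaving out 1 empty vector library moved them: without replicate 1 C10orf95-AS1 stood at -0.38 and FOXD2-AS1 at -0.55, and TMEM147-AS1 was called (adjusted p = 0.031), while without replicate 2 the other 4 were called, at -1.05 to -1.24. ATP6V0E2-AS1, opposite a subunit gene of the vacuolar proton pump, had 131, 273, 452 and 513 counts and a log2 fold change of 1.04 (adjusted p = 0.112, edgeR). The Wald test called it (adjusted p = 0.0399), as did edgeR without the filter (adjusted p = 0.0136), and it stood at 0.69 without empty vector replicate 1 and 1.52 without replicate 2, where it was called. Its groups did not overlap, with the lowest value in empty vector replicate 1.

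A list of 28 antisense RNAs known from the wider literature on noncoding RNA had 21 genes in the files, of which 13 were members and 15 were tested. By edgeR 0 of the 15 were called, against 4.79% of all genes, 3 had an unadjusted p under 0.05, and DESeq2's Wald test called 1, FOXD2-AS1. Without the filter on low counts 3 of 17 were called: FOXD2-AS1, EPB41L4A-AS1 and ZEB1-AS1. Calls over all genes also rose in that setting, from 737 to 1500. Neither this count nor the unadjusted one has a matching share of all genes beside it, so they are descriptions. The 15 tested had a median log2 fold change of 0.04. FGD5-AS1 and OIP5-AS1 are described above. TMPO-AS1, opposite a gene of the nuclear lamina, had 663, 590, 1080 and 818 counts and a log2 fold change of 0.32, with the RUNX1::ERG libraries the higher ones. ZEB1-AS1, opposite a repressor of epithelial genes, had 1023, 541, 630 and 457 counts. Empty vector replicate 1 stood apart, and the log2 fold change of -0.83 had an adjusted p of 0.217 (edgeR), with -0.15 without that library and -1.30 without replicate 2. EPB41L4A-AS1, with 1906, 1260, 1610 and 794 counts, was higher in replicate 1 than in replicate 2 of both groups. Its log2 fold change was -0.71 (adjusted p = 0.253, edgeR), from -1.16 to -0.25 with 1 library left out, and its RUNX1::ERG value was the lower one within each replicate number. AFAP1-AS1 had a log2 fold change of -0.41, MAPKAPK5-AS1 of -0.11, MCM3AP-AS1 of 0.05, PSMA3-AS1 of 0.04, ST7-AS1 of 0.43 (1.31 without empty vector replicate 1), THUMPD3-AS1 of -0.29 and TTN-AS1 of 0.02. Of these, only AFAP1-AS1 had groups without overlap.

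A list of 46 antisense symbols built on hematopoietic and ETS or Runt related genes had 10 genes in the files, of which 3 were members and 4 were tested, with 0 called by edgeR or by DESeq2's Wald test and 0 at an unadjusted p under 0.05. The members were PRKCQ-AS1, HOXB-AS3 and LEF1-AS1. PRKCQ-AS1, beside the gene of the T cell kinase PKC theta, had 1966, 2264, 2385 and 2168 counts and a log2 fold change of -0.15. HOXB-AS3, in the HOXB cluster of developmental transcription factors, had 105, 87, 122 and 96 counts and a log2 fold change of -0.10. LEF1-AS1 had 60, 46, 43 and 83 counts, with the RUNX1::ERG replicates at the lowest and the highest value. LEF1, a transcription factor of the Wnt pathway, had 1910, 2028, 1362 and 1226 counts and fell, with a log2 fold change of -0.86 (SE 0.18, adjusted p = 0.0245, edgeR).

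Grouped by what the sense gene encodes, the members had median log2 fold changes between -0.28 and 0.19. The 16 opposite zinc finger and related transcription factors had 0 calls and a median log2 fold change of -0.28, with 7 lower in both RUNX1::ERG libraries and 0 higher, where 18.7% of all members (22.1% of all genes tested) were lower in both and 13.7% (25.1%) higher. For 12 opposite chromatin proteins the median was 0.0088 and BAZ2B-AS1 was the single call. The 10 opposite ubiquitin and proteasome proteins had a median of 0.03, from -0.76 for USP2-AS1 to 0.36 for RNF217-AS1. The 6 opposite DNA repair, replication and division proteins had a median of 0.19, and SPAG5-AS1 was the highest at 0.49. Medians were -0.13 for 10 opposite solute carriers and ATPase pumps, -0.07 for 8 opposite mitochondrial proteins and -0.02 for 8 opposite RNA-binding proteins. These groups were formed after the values had been seen, so their medians are descriptions, beside the -0.04 of all members.

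Each antisense RNA was then set beside its sense gene. In the files, 180 members had their sense gene, which came to 179 genes because DLGAP1 faces 2 members, and 175 of these were tested. By edgeR 5 sense genes rose, among them ATP8B1, FGD5, VASH1 and ST8SIA6, and KRT10, VIM, LEF1, COCH, PPP1R26 and FAM83A fell, which is 11 of 175 against 4.79% of all genes. These were named after their values were seen. Without RUNX1::ERG replicate 1 the calls of FGD5, ST8SIA6, LEF1, COCH, PPP1R26 and FAM83A were lost, FAM83A was also lost without empty vector replicate 1 (-0.44), and PPP1R26 without RUNX1::ERG replicate 2. Neither gene was called in 163 of the 176 tested pairs. Both log2 fold changes had the same sign in 116 of 176 pairs, with a Spearman correlation of 0.35 and a Pearson correlation of 0.30 across pairs, in which both genes come from the same libraries and may share reads. In the 142 tested pairs with overlapping exons the Spearman correlation was 0.40, in the 15 where only gene bodies overlap it was 0.05, and in the 13 that lie apart with starts within 1000 bases it was -0.19. The same sign was seen in 94 of 142, 8 of 15 and 10 of 13 of these pairs, and the difference between the arrangements was not tested.

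**Figure D3:**
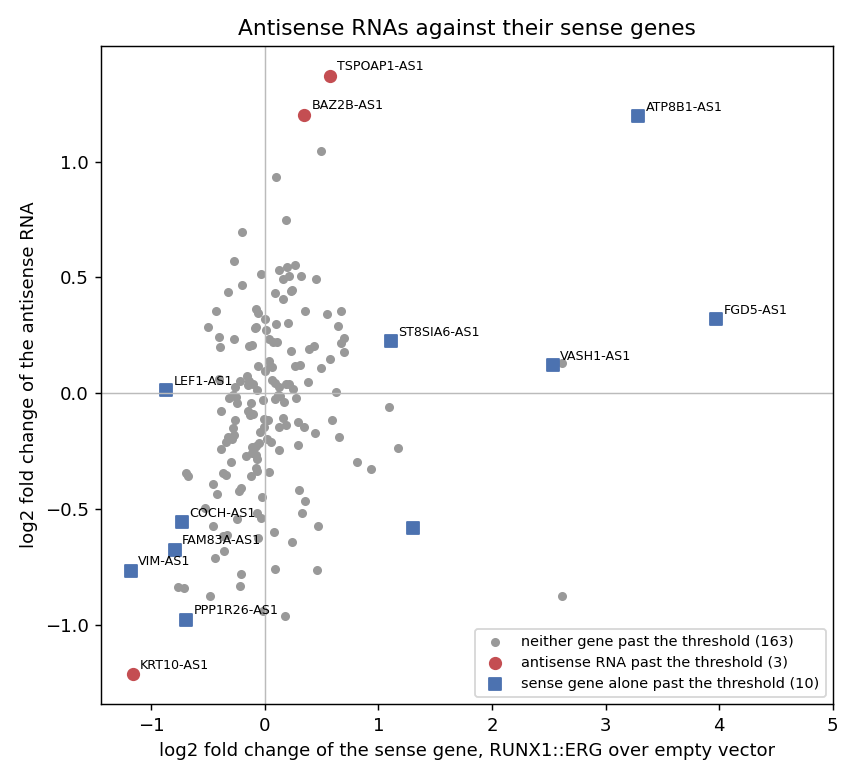
Log2 fold change of RUNX1::ERG over empty vector for the antisense RNA (vertical) against that of its sense gene (horizontal) in 176 pairs. Red points are pairs with the antisense RNA past the threshold, blue squares those with the sense gene alone past it and grey points the 163 pairs with neither; FGD5, ATP8B1 and VASH1, the called sense genes with the largest rises, have antisense RNAs at 0.32, 1.20 and 0.12.

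The balance of a pair inside a library does not depend on scaling between libraries, and it was taken as the log2 of (antisense count + 1) over (sense count + 1). The RUNX1::ERG ratios both exceeded the empty vector ratios in 33 of 180 pairs (18.3%), both lay under them in 37 (20.6%), and they overlapped in 110. Among the 275 antisense symbols with both genes tested the shares were 21.8% and 17.8%. Those 275 include the 176 member pairs whose sense gene was tested, so they are not a separate reference. For 55 divergent transcripts and their partners the shares were 18.2% and 23.6%. With 2 libraries in each group, the smallest two-sided p of an exact permutation test is 0.333, so the ratios are descriptive.

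The ratio changes named here were picked among pairs with a mean of at least 20 counts in both genes. FGD5, DLGAP1 and ATP8B1 met that mean through the RUNX1::ERG libraries, where they are high, and had means of 3, 5 and 19 with the empty vector, so the choice of these pairs and their shift are not independent. VASH1 met it in both groups. FGD5, known from endothelium and hematopoietic stem cells, had 2 and 4 counts with the empty vector and 78 and 40 with RUNX1::ERG, a log2 fold change of 3.97 (SE 0.71, adjusted p = 0.0104, edgeR), fitted against counts near the limit. The ratio went from 11.40 and 11.09 to 7.56 and 8.33, a change of -3.30. With 10 in place of 1 added to each count the change was -1.78, smaller than the -2.20 of the VASH1 pair, so the order of these pairs depends on the added count. Per kilobase of GENCODE exon, which is approximate here, FGD5-AS1 stood at 23.9 CPM and FGD5 at 0.00555 CPM with the empty vector.

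VASH1, which encodes a tubulin-modifying inhibitor of vessel growth, had 38, 50, 321 and 287 counts and a log2 fold change of 2.54 (SE 0.34, adjusted p = 0.0021, edgeR). VASH1-AS1 had 94, 154, 142 and 172 counts, with groups that overlapped and a log2 fold change of 0.12. The ratio of the pair changed by -2.40 (-2.20 with 10 added), and 56.6% of the antisense exon bases are shared with VASH1. ATP8B1, a phospholipid flippase, had 21, 17, 211 and 235 counts and a log2 fold change of 3.29 (SE 0.42, adjusted p = 0.0016, edgeR). ATP8B1-AS1 had 57, 22, 151 and 77 counts, so both genes of this pair were higher with RUNX1::ERG. The antisense log2 fold change of 1.20 (SE 0.55, adjusted p = 0.285, edgeR) did not pass. It was 2.19 without empty vector replicate 1, where it was called (adjusted p = 0.0047), and 0.60 without replicate 2. ATP8B1-AS1 became a member through those same libraries.

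DLGAP1, a scaffold of the synapse, had 6, 4, 39 and 36 counts and a log2 fold change of 2.61 that did not pass (adjusted p = 0.0547, edgeR), and passed with DESeq2 size factors (adjusted p = 0.0479), without the filter (0.0156) and without empty vector replicate 1 (0.0415). Its 2 antisense RNAs differed. DLGAP1-AS1 had 337, 189, 375 and 330 counts and a log2 fold change of 0.13, and DLGAP1-AS2 had 1880, 755, 1023 and 765 counts and a log2 fold change of -0.88 (adjusted p = 0.26). Empty vector replicate 1 alone was high for DLGAP1-AS2, whose log2 fold change was 0.085 without that library and -1.46 without empty vector replicate 2, where it was called (adjusted p = 4.66e-07, edgeR). Its ratio to DLGAP1 changed by -3.13 and that of DLGAP1-AS1 by -2.22 (-2.09 and -1.20 with 10 added), and they share the DLGAP1 counts.

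**Figure D4:**
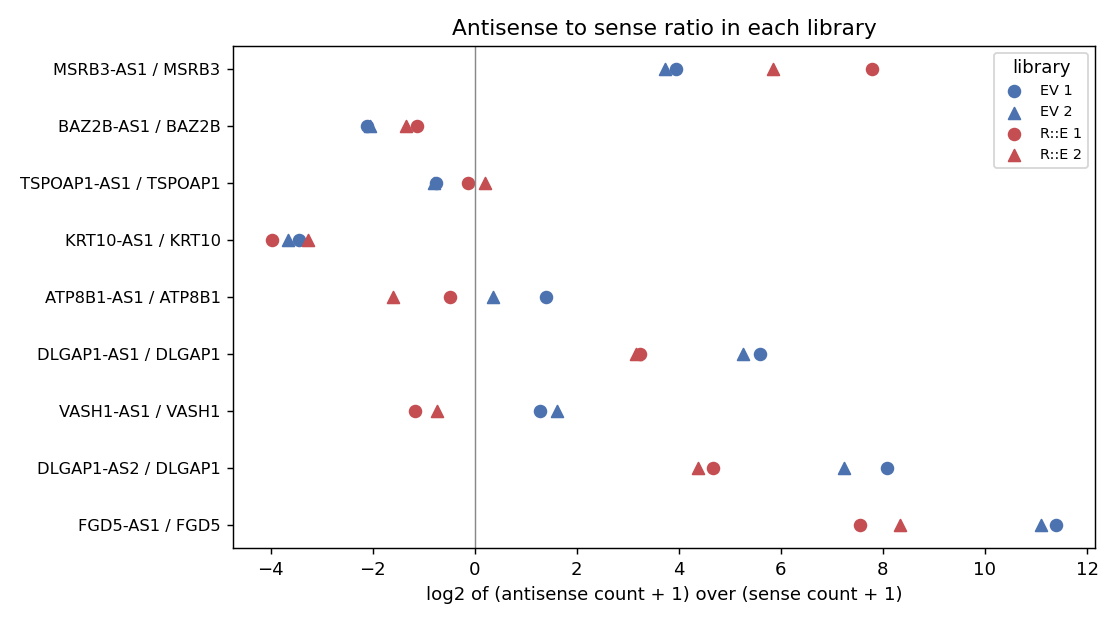
Log2 of (antisense count + 1) over (sense count + 1) in each library, for the 5 pairs named for the size of their ratio change and the 4 pairs whose antisense RNA passed the threshold. Blue is empty vector, red RUNX1::ERG, circles replicate 1 and triangles replicate 2; the FGD5 pair moves from 11.40 and 11.09 to 7.56 and 8.33, and the KRT10 pair overlaps.

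ST8SIA6, a sialyltransferase, had 675, 551, 2002 and 1245 counts and a log2 fold change of 1.11 (adjusted p = 0.0309, edgeR), and ST8SIA6-AS1 stood at 0.22 with overlapping groups. In this pair only the gene bodies overlap.

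Among the falling sense genes, VIM, the intermediate filament protein vimentin, had 42524 and 58338 counts with the empty vector and 26298 and 26252 with RUNX1::ERG, a log2 fold change of -1.18 (SE 0.15, adjusted p = 0.0017, edgeR). VIM-AS1 had 1254, 915, 716 and 816 counts, also lower in both RUNX1::ERG libraries, at -0.77 (SE 0.27, adjusted p = 0.146, edgeR), with -0.39 without empty vector replicate 1 and -1.07 without replicate 2, where it was called, and 30.9% of its exon bases are shared with VIM. PPP1R26-AS1, at -0.98, and FAM83A-AS1, at -0.68, likewise lay on the side of their sense genes, which were at -0.69 and -0.79, without passing. FAM83A-AS1 stood at -0.37 without empty vector replicate 1 and was called without replicate 2 (adjusted p = 0.0222). COCH, the secreted protein cochlin, had a log2 fold change of -0.73 (adjusted p = 0.0245) and COCH-AS1 one of -0.56 with overlapping groups.

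Most antisense RNAs were higher in replicate 1 than in replicate 2 of the same group. In normalized CPM, 151 of 182 members (83.0%) were higher in empty vector replicate 1 than in replicate 2, with a median log2 difference of 0.48. In the RUNX1::ERG group 124 (68.1%) were higher in replicate 1, with a median of 0.19. The shares were 47.5% and 46.0% for protein-coding genes of the same CPM rule, 79.5% and 59.1% for LINC RNAs, and 80.0% and 70.9% for divergent transcripts. In both groups at once, 111 members (61.0%) were higher in replicate 1, against 28.3% of the protein-coding genes, and 18 were lower in both. The empty vector replicates differed at least 2-fold in 29 members, all 29 higher in replicate 1, and the RUNX1::ERG replicates in 7. By the fit, the 2 groups differed at least 2-fold in 6 members. The fit takes 2 libraries per group, so this is not the same measure as a ratio of single libraries. No share of other genes at 2-fold is given. Of the 151 members at 1 CPM or more in all libraries, a restriction chosen after the data were seen, 120 were higher in empty vector replicate 1 and 101 in RUNX1::ERG replicate 1.

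**Figure D5:**
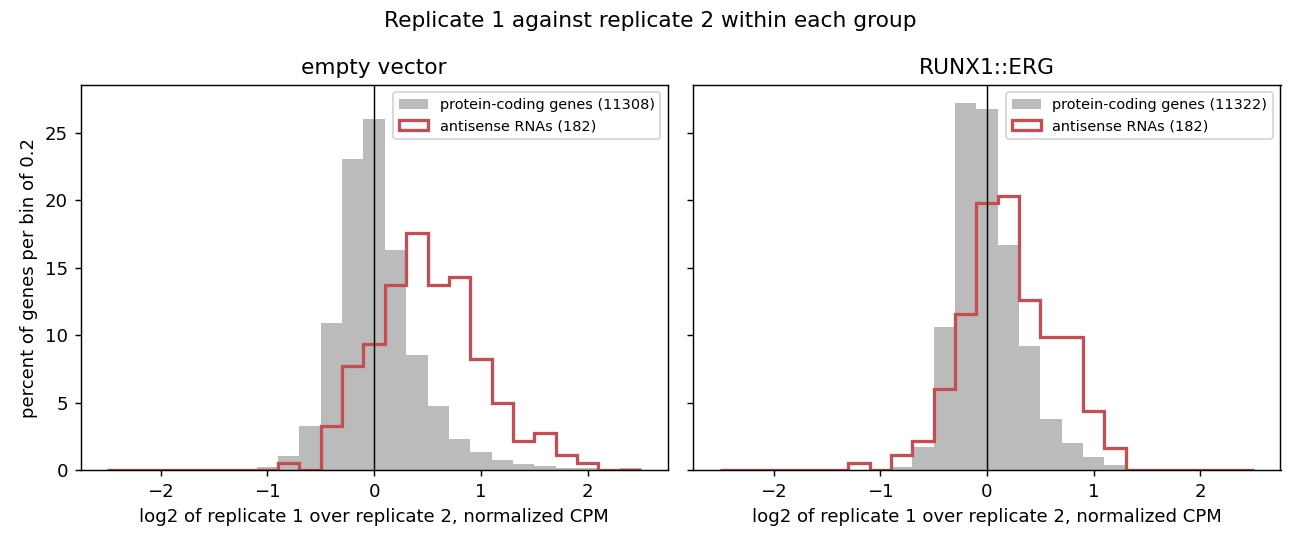
Distribution of the log2 ratio of replicate 1 to replicate 2 in normalized CPM, as percent of genes per bin, for antisense RNAs (red line) and protein-coding genes of the same CPM rule (grey), in the empty vector group (left) and the RUNX1::ERG group (right). The antisense RNAs sit to the right of 0, with medians of 0.48 and 0.19, and the protein-coding genes centre near 0.

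The sense genes did not share this shift, since 92 of 179 (51.4%) were higher in empty vector replicate 1 and 83 (46.4%) in RUNX1::ERG replicate 1. The antisense to sense ratio was therefore also higher in replicate 1, in 136 of 180 pairs (75.6%) with the empty vector and in 107 (59.4%) with RUNX1::ERG. Among abundant nuclear noncoding RNAs, NEAT1 stood at 1279 and 354 normalized CPM in the empty vector replicates and at 773 and 297 in the RUNX1::ERG replicates. MALAT1 stood at 258 and 164, and at 345 and 223. The labels name no batch that the replicate numbers would mark, and whether the differences of these RNAs and of the antisense RNAs are linked was not tested. THUMPD3-AS1, with 1881, 1124, 1923 and 1140 counts, was higher in replicate 1 of both groups and overlapped between the groups.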

How the data were processed

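WTS was analysed for 4 K562 libraries, 2 with the empty vector and 2 with RUNX1::ERG. The values are gene counts as deposited, in 1 table per library, keyed by NCBI gene number and not normalized. The submitters' processing notes name HISAT2 2.2.1, featureCounts 2.0.1 and hg19. The annotation, the strand setting and the treatment of reads that overlap several genes are not given in the sources used here, so overlapping genes are uncertain. Symbols came from a RefSeq table of GRCh38.p14 (92.2% of genes matched), positions from GENCODE v44 on GRCh37. The sense gene is the symbol without -AS and its digits.

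In R 4.3.3, edgeR 4.0.16 scaled the libraries by TMM, removed low genes by filterByExpr, and applied the quasi-likelihood test without a block and Benjamini-Hochberg adjustment over all 15394 genes tested, with 0.05 as the threshold. In simulated data, 42% of 100 genes changed by a log2 of 1 and 100% of 100 changed by 2 were called. The spread between replicates (dispersion) was 0.04 for every gene there, with no shift between replicate numbers. The changed genes were drawn from all genes above a minimum count. These shares therefore do not measure how often such a change in an antisense RNA would be called. Alternatives used DESeq2 1.42.0 and limma 3.58.1 voom. P-values measure the spread between these libraries.

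The members and lists were chosen with earlier results of these data known. Named were the antisense RNAs past the threshold, the 8 with the highest CPM, the 5 with the largest ratio change among non-overlapping pairs with a mean of at least 20 counts in both genes, members of both literature lists and those next to the CPM limit. Antisense RNAs next to the test's threshold, the sense genes called and the groups by sense gene were named after their values were seen. A few results that these rules would name are not reported here.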

Additional observations from a re-analysis of the deposited data

How the results depend on the processing

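MSRB3-AS1, TSPOAP1-AS1, BAZ2B-AS1 and KRT10-AS1 were called in the same direction under every scaling, filter and test tried, with the replicate block, and without each library except RUNX1::ERG replicate 1. With 1 library left out, the lone library is assumed to vary like the other group. The number of members called was 15 without the filter on low counts (11 lower) and 11 with DESeq2's Wald test (7 lower). Including older symbols raised the number of members from 182 to 240, of which 6 were called and 3 of these were lower. Called sense genes numbered 17 without the filter, with 9 higher, and 9 were higher with the Wald test. Over all genes the calls were 1500 without the filter (962 higher, 538 lower) and 1204 with the Wald test (403 lower), and 103 were lower with library totals alone. In that larger set with older symbols the ratio lay below in 57 pairs and above in 39, where the main set had 37 and 33. Leaving out 1 library gave 0 to 22 members called (0 to 8 higher, 0 to 18 lower), 5 to 19 sense genes (3 to 9 higher, 2 to 13 lower), 286 to 1336 genes in all (228 to 922 higher, 58 to 602 lower), and ratios above in 44 to 84 pairs and below in 48 to 98.

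The replicate numbers are not stated to pair the libraries, and the deviations of same-numbered libraries had a correlation of 0.271. With the replicate block, 12 members (8 lower), 22 sense genes (13 higher) and 1733 genes (1082 higher, 651 lower) were called. The 8 members called with the block and not without it were ATP6V0E2-AS1, CCDC18-AS1, EPB41L4A-AS1 (adjusted p = 0.0186), FOXD2-AS1 (0.0118), PPP1R26-AS1, TMEM147-AS1, TRG-AS1 and ZNF674-AS1, 2 of them in the literature list of 15 tested.

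Log2 fold changes near 0 turned direction for LEF1-AS1 (-0.086 with voom, -0.056 with the block), MRPL20-AS1 (0.033 with library totals) and TMPO (-0.0081 with DESeq2 size factors, -0.0076 without the filter, -0.0096 with the Wald test, -0.0050 with voom, -0.00042 with the block). With 1 library left out, the range crossed 0, at -0.31 to 0.75 for DLGAP1-AS1, -1.46 to 0.085 for DLGAP1-AS2, -0.073 to 0.44 for EML2-AS1, -0.33 to 0.17 for HOXB-AS3, -0.70 to 0.49 for LEF1-AS1, -0.34 to 0.067 for MAPKAPK5-AS1, -0.10 to 0.18 for MCM3AP-AS1, -0.089 to 0.068 for MRPL20-AS1, -0.081 to 0.27 for OIP5-AS1, -0.0064 to 0.068 for PSMA3-AS1, -0.12 to 1.31 for ST7-AS1, -0.69 to 0.27 for THUMPD3-AS1, -0.11 to 0.15 for TTN-AS1, -0.17 to 0.38 for VASH1-AS1, -0.042 to 0.54 for ST8SIA6-AS1, -0.47 to 0.10 for AFAP1, -0.33 to 0.12 for ARRDC1, -0.15 to 0.42 for EML2, -0.023 to 0.15 for OIP5, -0.37 to 0.089 for PROSER2, -0.011 to 0.17 for ST7, -0.20 to 0.083 for THUMPD3, -0.20 to 0.17 for TMPO and -0.063 to 0.64 for TTN. The causes were not tested. Replicates of 2 per group and a median standard error of 0.323 limit what can be seen, and whether the counting separated the strands of overlapping genes is not given in the sources used here.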
